A study of Mus musculus with 24 samples.

Results

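The genes described here are 10 genes of the integrated stress response and of the neighbouring endoplasmic reticulum stress pathway, *Atf4*, *Ddit3*, *Trib3*, *Chac1*, *Asns*, *Sesn2*, *Psat1*, *Phgdh*, *Hspa5* and *Xbp1*. They were chosen by name, as the rows of the expression table that carry these symbols, and make up 10 of its 25965 entries. All 10 passed the filter on low values that left 13296 entries for testing. Their levels were followed by RNA-seq in male C57/Bl6 mouse embryonic stem cells (mESCs) that had been expanded in 2i medium, which holds cells in a naive state, and then weaned into DME HiHi medium to differentiate. Every culture received a retroviral short hairpin RNA on day 2 of differentiation and puromycin from day 3, the Nons controls included, and was harvested on days 4, 5, 6 and 7. The Smarcc1 knockdown group had 8 libraries (hairpins Smarcc1.6 and Smarcc1.7), the Smarca4 knockdown group 8 libraries (hairpins Smarca4.4 and Smarca4.6) and the Nons group 4 libraries of 1 nonsilencing hairpin series, with 1 library per hairpin and day. *Smarcc1* encodes a core subunit and *Smarca4* an ATPase of the BAF chromatin remodelling complex. A second series of Nons libraries was not analysed here.

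The integrated stress response starts when kinases that sense amino acid shortage, misfolded protein in the endoplasmic reticulum, double-stranded RNA or haem deficiency phosphorylate the translation factor eIF2alpha. General translation falls, while the *Atf4* mRNA is translated more, and the ATF4 protein then switches on genes for amino acid synthesis and transport, glutathione metabolism and feedback control. The endoplasmic reticulum also signals through ATF6 and through IRE1, which splices the *Xbp1* mRNA, and these arms raise chaperones such as BiP, the product of *Hspa5*. The serine pathway can supply one-carbon units in dividing cells. RNA levels show neither the translation of ATF4 nor the splicing of *Xbp1*, since the table holds 1 value per gene, and in bulk samples fewer cells of a type and less RNA per cell cannot be told apart.

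Libraries held 6829596 to 27472885 mapped reads, the smallest being Smarca4.4 on day 5. *Smarcc1* stood at 23.7% to 60.1% of same-day Nons in the 8 Smarcc1 knockdown libraries, and *Smarca4* at 21.6% to 55.3% in the 8 Smarca4 knockdown libraries, so the targeted genes were lower in every library of their group. The 5 markers of pluripotent stem cells were all detected and their summed level was lower on each later day in every group, at 1768 to 2168 rpm (mapped reads scaled to the library total) on day 4 and 326 to 702 rpm on day 7. Most of the sum on day 4 was *Pou5f1*, with a mean of 1406 rpm. *Nanog* did not fall at each step, with means of 193, 158, 207 and 116 rpm on days 4, 5, 6 and 7. The 3 primed epiblast markers summed to 982 to 1415 rpm on day 4 and 195 to 335 rpm on day 7, most of it *Dnmt3b*. Markers of mesendoderm (3 genes) and primitive endoderm (3 genes) summed to at most 13.0 rpm in any library, with *T*, *Mesp1*, *Gata6* and *Sox17* under the filter on low values, and neural markers (2 genes) to at most 46.2 rpm. The 3 fibroblast or mesenchyme markers summed to 23.2 to 112.7 rpm on day 7. This sum was carried by *Col1a1* and *Col1a2*, with means of 34.5 and 27.0 rpm. *Dcn* was lower on day 7 than on day 4, with means of 1.01 and 2.07 rpm. Whether these changes in cell state have a part in the results below was not tested.

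Levels between genes can be compared only per length of transcript. As a stand-in, the annotated exons of all transcripts of a gene were joined, which can exceed the length of the transcript expressed. Averaged over the 20 libraries and divided by the kilobases of annotated exon, *Hspa5* was highest at 329 rpm per kb, followed by *Atf4* at 167, *Psat1* at 163, *Asns* at 114 and *Phgdh* at 95.5 rpm per kb. *Xbp1* (37.0), *Trib3* (28.8), *Sesn2* (27.1), *Chac1* (20.7) and *Ddit3* (17.7 rpm per kb) were lower. Even the lowest value, *Ddit3* in 1 library, rested on 134 reads. The genes also differed in how far they ranged. Over the 20 libraries the highest value of *Ddit3* was 11.95 times its lowest, that of *Chac1* 6.26 times and that of *Atf4* 2.24 times.

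In the mm10 coordinates of the table, *Atf4* lies at chr15:80255184-80257540, *Ddit3* at chr10:127290774-127296288, *Chac1* at chr2:119351229-119354381, *Hspa5* at chr2:34771970-34776531 and *Xbp1* at chr11:5520659-5525893, all on the forward strand. On the reverse strand are *Trib3* at chr2:152337422-152344032, *Asns* at chr6:7675169-7693254, *Sesn2* at chr4:132492032-132510501, *Psat1* at chr19:15904678-15947337 and *Phgdh* at chr3:98313170-98339990. Some of these loci share sequence with others. *Ddit3* overlaps the oppositely oriented gene *Mars*, a member of the tRNA synthetase list below, over 68 bases, and *Sesn2* shares 6089 bases with *Gm12981*, a transcript of the antisense class annotated on the same strand as *Sesn2*. The longest transcript of *Phgdh* matched 21 other annotated genes, 17 of them pseudogenes, at 90% identity or more over at least 75 bases, the length of a read. *Psat1* matched 1 such pseudogene, and the other 8 genes matched none. How the counting treated strand and reads with several matches is not given in the sources used here, so values of *Phgdh* in particular may hold reads of its copies.

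The promoters of 4 of the genes are shown because each holds a sequence that is known from textbook descriptions of these pathways: the core of the C/EBP-ATF response element bound by ATF4 with a C/EBP partner, searched as TGATGNAA, and the endoplasmic reticulum stress element, searched as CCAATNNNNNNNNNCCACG. Both strands of the RefSeq promoters (build GRCm38.p6, 250 bases before to 50 bases after the gene start) were searched. The first motif occurred in 3.97% of 32851 promoter windows and in 3 of the 10 genes, *Chac1*, *Trib3* and *Asns*. The other occurred in 0.119% of windows and in *Hspa5* alone among the 10. The runs below, 5′ to 3′ on the strand of each gene, cover 250 bases before and 30 bases after the start, with the motif in capitals. The start is that of the RefSeq promoter and differs from the locus ends given above. By those ends the *Trib3* motif lies outside its locus, and the *Asns* and *Hspa5* motifs lie inside theirs. In *Chac1* (chr2:119350992-119351271, forward strand) the motif begins 193 bases before the start and reads on the opposite strand.
Chac1: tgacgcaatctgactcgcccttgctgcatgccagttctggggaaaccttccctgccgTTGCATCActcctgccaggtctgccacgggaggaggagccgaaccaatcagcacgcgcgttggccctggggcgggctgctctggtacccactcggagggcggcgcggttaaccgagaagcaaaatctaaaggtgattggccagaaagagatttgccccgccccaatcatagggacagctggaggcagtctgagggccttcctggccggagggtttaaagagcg
In *Trib3* (chr2:152344031-152344310, reverse strand) it lies after the RefSeq start, from base 15, also on the opposite strand.
Trib3: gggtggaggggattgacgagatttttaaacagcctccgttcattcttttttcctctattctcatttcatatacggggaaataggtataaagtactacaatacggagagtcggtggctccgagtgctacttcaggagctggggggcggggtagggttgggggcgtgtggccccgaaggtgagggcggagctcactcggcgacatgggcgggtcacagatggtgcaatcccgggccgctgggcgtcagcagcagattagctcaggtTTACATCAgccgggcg
In *Asns* (chr6:7693180-7693459, reverse strand) it begins 23 bases before the start on the strand of the gene.
Asns: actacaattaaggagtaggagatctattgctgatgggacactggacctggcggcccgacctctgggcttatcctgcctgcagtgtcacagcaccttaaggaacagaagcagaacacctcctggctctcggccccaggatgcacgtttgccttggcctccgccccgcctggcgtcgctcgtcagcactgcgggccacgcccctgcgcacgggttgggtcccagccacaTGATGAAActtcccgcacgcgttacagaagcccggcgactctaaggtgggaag
In *Hspa5* (chr2:34771840-34772119, forward strand) the endoplasmic reticulum stress element begins 65 bases before the start on the strand of the gene.
Hspa5: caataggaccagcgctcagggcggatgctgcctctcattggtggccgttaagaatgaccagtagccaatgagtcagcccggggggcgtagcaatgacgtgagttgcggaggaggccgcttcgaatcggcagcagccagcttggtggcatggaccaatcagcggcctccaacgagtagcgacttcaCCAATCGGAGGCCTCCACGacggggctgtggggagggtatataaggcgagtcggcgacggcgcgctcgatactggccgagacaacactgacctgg
The 2 motifs did not overlap in these windows. A match describes the sequence and does not show that a factor bound there, and the other 6 genes, whose windows held neither string, may carry sites elsewhere or with other letters.

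The first comparison asked how the 10 genes changed over the days of differentiation, whichever hairpin the cells carried. In every series, time since the change of medium, since transduction and since the start of puromycin advanced with the day. The parts of these cannot be told apart from that of differentiation. Between day 4 and day 5, *Atf4* and 6 of its known targets went up together in each of the 5 culture series, while *Sesn2*, *Hspa5* and *Xbp1* went down in each. After day 5 the genes parted: *Chac1* fell back, *Ddit3* and *Asns* climbed on to day 6 and stayed high, *Psat1* and *Phgdh* held until day 6 and fell on day 7, and *Hspa5* rose on days 6 and 7 to its highest level.

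By limma's F test over the 4 days, 10 of 10 genes differed between days at an adjusted p under 0.05, against 77.2% of all genes tested, so differing between days was common to most genes. The step from day 4 to day 5, a contrast added after the values by day had been seen, passed in 9 of 10 genes, against 38.7% of all genes: 7 were higher (19.5% of all genes) and 2, *Sesn2* and *Xbp1*, were lower (19.2% of all genes). Without any test, 7 of 10 genes were higher on day 5 than on day 4 in 5 of 5 series, as were 23.5% of all genes, and 3 were lower in 5 of 5, as were 26.1%. The genes at least 2-fold higher in 5 of 5 series numbered 4, namely *Ddit3*, *Trib3*, *Chac1* and *Psat1*, against 2.92% of all genes. The median difference between day 5 and day 4 over the 10 genes was 1.08 on the log2 scale, beside -0.03 over all genes tested.

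**Figure D1:**
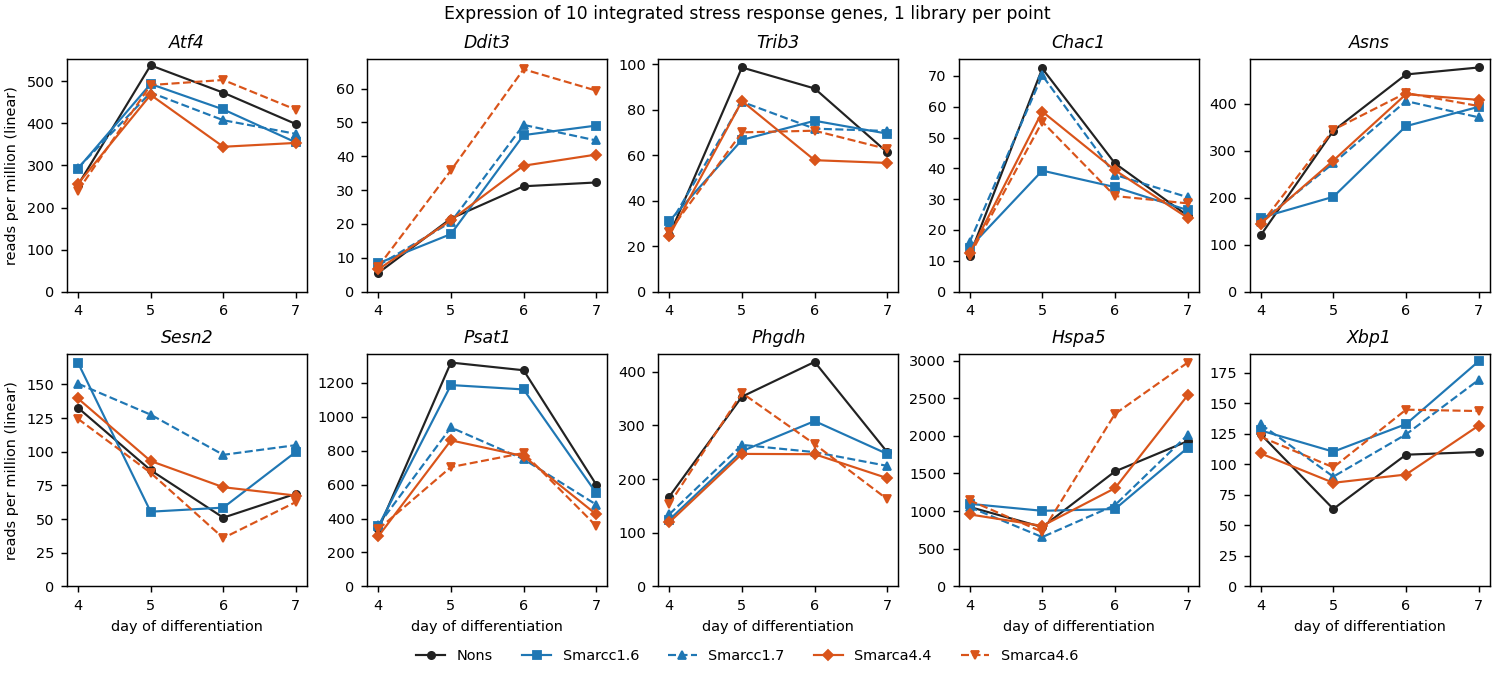
Levels of the 10 genes in rpm on a linear axis (vertical) by day of differentiation (horizontal), 1 point per library, with lines joining the libraries of 1 hairpin: Nons in black, Smarcc1 knockdown in blue, Smarca4 knockdown in orange. All 5 lines rise from day 4 to day 5 for Atf4, Ddit3, Trib3, Chac1, Asns, Psat1 and Phgdh, and go down for Sesn2, Hspa5 and Xbp1.

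*Atf4* itself, the transcription factor at the centre of the response, stood at 253, 538, 473 and 399 rpm on days 4, 5, 6 and 7 in Nons. In Smarcc1.6 it was 293, 494, 433 and 355 rpm, and in Smarcc1.7 294, 474, 408 and 375 rpm. Day 5 was the highest day in these 3 series. In Smarca4.4 it was 256, 468, 345 and 354 rpm and in Smarca4.6 239.8, 491, 504 and 433 rpm, with the highest value on day 5 in the former and on day 6 in the latter. Day 4 did not overlap with any later day, since its range over the 5 series was 239.8 to 294 rpm and that of days 5 to 7 began at 345 rpm. The rise from day 4 to day 5 was 1.89-fold, or 0.92 ± 0.13 (SE) on the log2 scale, with a limma adjusted p of 1.62e-04. *Atf4* was still 1.46-fold higher on day 7 than on day 4 (adjusted p = 0.00211 by limma).

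The 3 stress effectors rose as well, each with a larger estimate than *Atf4*, a difference that was not tested. *Chac1*, an enzyme that breaks down glutathione, went from 11.6 to 16.04 rpm on day 4 to 39.2 to 72.4 rpm on day 5, and came back to 31.0 to 41.6 rpm on day 6 and 23.9 to 30.6 rpm on day 7. Day 5 was its highest day in 5 of 5 series. The rise to day 5 was 4.68-fold (2.23 ± 0.17 on the log2 scale, adjusted p = 2.55e-06 by limma), the largest among the 10 genes, and ranged from 2.76 to 6.26 times between series, with Nons at the top and Smarcc1.6 at the bottom. The falls to day 6 (-0.68 ± 0.17) and to day 7 (-0.50 ± 0.17 on the log2 scale) also passed, with adjusted p of 0.00822 and 0.0414. The former was lost without Smarca4.6 (adjusted p = 0.0717), and the latter without a filter on low values (0.0587) and without Smarcc1.6 (0.0637), Smarca4.4 (0.189) or Smarca4.6 (0.121).

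*Trib3*, a pseudokinase that binds ATF4 and restrains it, went from 24.5 to 31.0 rpm on day 4 to 66.7 to 98.5 rpm on day 5, and the ranges of these days did not overlap. Days 6 and 7 held 57.7 to 89.3 and 56.5 to 70.6 rpm. Its rise to day 5 was 3.10-fold (1.63 ± 0.12 on the log2 scale, adjusted p = 2.33e-06 by limma), and neither later step passed, although the step to day 7 (-0.24 ± 0.12) passed at -0.44 when libraries were centred on their median gene (adjusted p = 0.0324) and at -0.38 with quantile normalization (0.0466). On day 5 Nons was the highest of the 5 libraries at 98.5 rpm, and on day 7, at 61.2 rpm, it was below 3 of the other 4.

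*Ddit3*, which encodes the bZIP factor CHOP, had the widest range of the 10. On day 4 it was at 5.50 to 8.35 rpm, on day 5 at 17.0 to 35.8 rpm, on day 6 at 31.1 to 65.7 rpm and on day 7 at 32.2 to 59.4 rpm. Unlike *Chac1* and *Trib3*, it rose again from day 5 to day 6 in 5 of 5 series. The 2 steps were 1.73 ± 0.20 and 0.91 ± 0.20 on the log2 scale, with limma adjusted p of 5.85e-05 and 0.00472. From day 6 to day 7 the difference was 0.00 ± 0.20, and day 7 was 6.23-fold above day 4 (adjusted p = 1.92e-07).

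The 3 amino acid synthesis genes went up on day 5 and then separated. *Asns*, which makes asparagine, was at 119.8 to 157 rpm on day 4, 202 to 345 rpm on day 5, 352 to 462 rpm on day 6 and 371 to 477 rpm on day 7. Only Smarcc1.6 lagged on day 5, at 202 rpm, while the other 4 libraries of that day held 273 rpm or more. *Asns* rose 2.12-fold to day 5 and a further 1.44-fold to day 6 (limma adjusted p of 3.94e-05 and 0.00584, the latter 0.0597 without Smarca4.4), and was 3.03-fold above day 4 on day 7.

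*Psat1* and *Phgdh* encode enzymes of serine synthesis, with PHGDH at the first step of the pathway and PSAT1 at the next. *Psat1* was at 294 to 360.0 rpm on day 4, 704 to 1320.0 rpm on day 5, 750.0 to 1275 rpm on day 6 and 356 to 599.8 rpm on day 7. It rose 3.06-fold to day 5 and fell by 0.98 ± 0.15 on the log2 scale from day 6 to day 7, in 5 of 5 series (limma adjusted p of 9.74e-06 and 9.17e-04). *Phgdh* was at 119 to 167 rpm on day 4, 247 to 360.4 rpm on day 5, 246 to 418 rpm on day 6 and 162 to 249.97 rpm on day 7. It followed the same course with smaller steps, 2.10-fold up to day 5 and down by 0.49 ± 0.14 on the log2 scale to day 7 (adjusted p of 1.29e-04 and 0.0241). Its fall to day 7 was lost without Smarcc1.6 (0.102) and without Smarca4.6 (0.0935).

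*Sesn2*, a leucine-binding protein that holds back mTORC1 and is a known ATF4 and p53 target, ran against the others. It was at 124 to 166 rpm on day 4 and at 55.5 to 128, 35.9 to 97.7 and 62.6 to 105 rpm on days 5, 6 and 7. Day 4 was its highest day in 5 of 5 series, and the spread between series was wide, with Smarcc1.6 at 55.5 rpm and Smarcc1.7 at 128 rpm on day 5. The difference between day 5 and day 4 was -0.70 ± 0.25 on the log2 scale (adjusted p = 0.044 by limma), which passed narrowly and was lost in 5 of 12 other settings. Day 7 was lower than day 4 by 0.87 ± 0.25 (adjusted p = 0.00908).

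The 2 genes of the endoplasmic reticulum arm took the opposite turn on day 5. *Hspa5*, the chaperone BiP, was at 956 to 1143 rpm on day 4, 655 to 1004 rpm on day 5, 1027 to 2290.3 rpm on day 6 and 1840.3 to 2973 rpm on day 7. Day 5 was its lowest and day 7 its highest day in 5 of 5 series. The dip on day 5 was -0.43 ± 0.18 on the log2 scale and did not pass (adjusted p = 0.0696 by limma), whereas the rises to day 6 and to day 7, 1.79-fold and 1.54-fold, did (adjusted p of 0.00333 and 0.0216). The dip passed with each series taken as a replicate block (adjusted p = 0.0396) and, at -0.69, with quantile normalization (0.0041). The rise to day 7 was lost when centred on the median gene (0.43, adjusted p = 0.157) and without Smarcc1.6 (0.064) or Smarca4.4 (0.0746).

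*Xbp1*, whose spliced mRNA encodes a factor that raises chaperone and degradation genes, was at 109 to 133 rpm on day 4, 63.4 to 110.3 rpm on day 5, 91.5 to 145 rpm on day 6 and 110.0 to 184 rpm on day 7. Day 5 was again the lowest day in 5 of 5 series, lowest of all in Nons at 63.4 rpm. It fell by 0.57 ± 0.14 on the log2 scale to day 5 and rose by 0.49 ± 0.14 to day 6 (limma adjusted p of 0.0074 and 0.0182). The rise to day 6 was lost when centred (0.0737) and without Smarcc1.6 (0.0563), Smarcc1.7 (0.0835) or Smarca4.6 (0.0617). Day 7 against day 4 gave 0.17 ± 0.14 (adjusted p = 0.304).

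**Figure D2:**
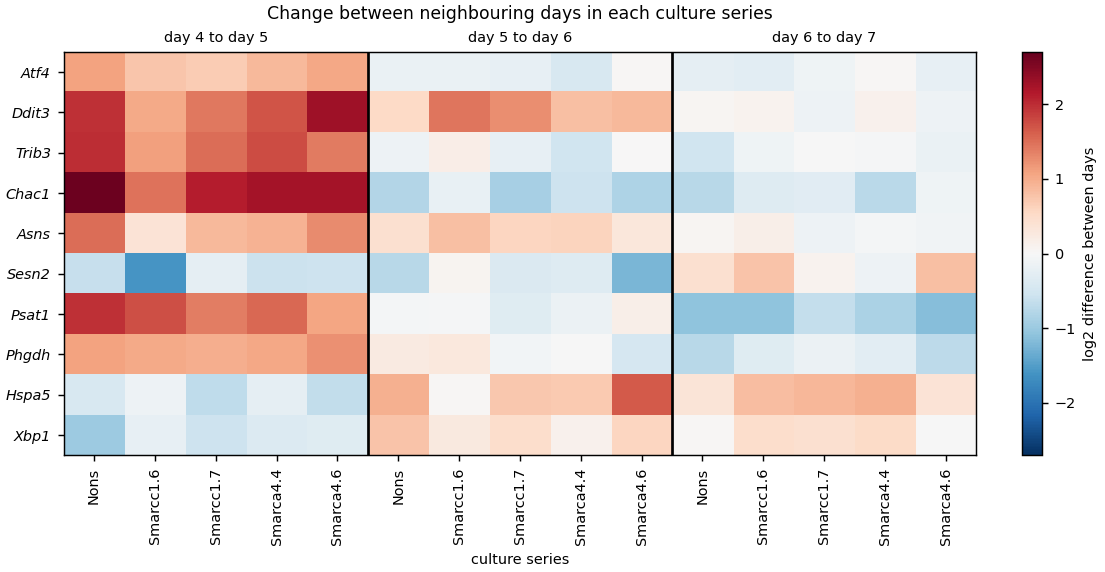
Log2 difference between neighbouring days (colour, red higher and blue lower on the later day) for each gene (rows) in each of the 5 culture series (columns), in 3 blocks for the steps from day 4 to 5, 5 to 6 and 6 to 7. The first block is red in 7 rows and blue in the rows of Sesn2, Hspa5 and Xbp1, and Psat1 and Phgdh are blue throughout the last block.

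Over the later steps fewer genes passed. From day 5 to day 6 the count was 5 of 10, against 32.3% of all genes (*Ddit3*, *Asns*, *Hspa5* and *Xbp1* higher, *Chac1* lower), and from day 6 to day 7 it was 4 of 10, against 27.5% (*Hspa5* higher, *Chac1*, *Psat1* and *Phgdh* lower). The former count was 3 without Smarca4.6, and the latter was 1 without Smarcc1.6 and 2 without either Smarca4 hairpin. Comparing day 7 with day 4 directly, 9 of 10 genes passed, against 64.5% of all genes, and 8 of 10 were higher, against 35.7%. These 8 were all but *Sesn2* and *Xbp1*, and the median over the 10 genes was 0.83 on the log2 scale, beside 0.08 over all genes tested. When each library was centred on its median gene, every day 7 against day 4 difference dropped by 0.18, and *Atf4* and *Psat1* no longer passed. *Psat1* was also lost without Smarca4.4 (adjusted p = 0.0574).

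The next comparison asked whether loss of *Smarcc1* shifted these genes. No gene of the 10 passed the test against Nons over the 4 days. *Xbp1* came nearest on the higher side and *Phgdh* on the lower side, and both lay on 1 side of same-day Nons in 8 of 8 Smarcc1 knockdown libraries. Averaged over the 4 days, *Atf4*, *Trib3* and *Chac1* differed from Nons by less than 0.07 on the log2 scale. These averages hold opposite signs. In both hairpins each of these genes was above Nons on day 4 and below it on days 5 and 6. *Trib3*, for example, stood at 125% and 118% of Nons on day 4 and at 67.7% and 84.7% on day 5. On day 7 *Atf4* was below Nons and *Trib3* and *Chac1* were above it. Whether the difference changed between days is tested below.

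The count of 0 of 10 by limma stands against 10.6% of all genes called in this comparison. At an unadjusted p under 0.05 the count was 2, *Phgdh* and *Xbp1*, and limma-voom on the recovered reads also called 0. *Xbp1* was 125, 63.4, 108 and 110.0 rpm on days 4 to 7 in Nons, 128, 110.3, 133 and 184 rpm in Smarcc1.6 and 133, 89.8, 124 and 169 rpm in Smarcc1.7. Both hairpins were above Nons on each day, by little on day 4 and by most on days 5 and 7, and the mean difference was 0.41 ± 0.13 (SE; adjusted p = 0.0619). *Phgdh* was 167, 354, 418 and 249.97 rpm in Nons, 124, 252, 308 and 247 rpm in Smarcc1.6 and 134, 264, 250.2 and 225 rpm in Smarcc1.7. The knockdown libraries were below Nons on each day, with a gap of a few rpm for Smarcc1.6 on day 7, and the mean difference was -0.38 ± 0.13 (adjusted p = 0.0917). In this group 8.69% of all genes were higher and 5.17% lower than same-day Nons in 8 of 8 libraries, so 1 of 10 on each side is near what genes in general showed. *Xbp1* passed when day 6 was left out (adjusted p = 0.0469) and *Phgdh* when the smallest library was left out (adjusted p = 0.046).

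The remaining genes gave log2 differences of 0.37 ± 0.19 for *Ddit3*, 0.34 ± 0.23 for *Sesn2*, -0.23 ± 0.14 for *Psat1* and -0.20 ± 0.11 for *Asns*. *Sesn2* was higher than same-day Nons in 7 of 8 libraries and *Ddit3* in 6 of 8, but for *Sesn2* the 2 hairpins were far apart on day 5, with Smarcc1.6 at 64.3% and Smarcc1.7 at 148% of Nons, and on day 6, at 115% and 191%. On days 4 and 7 they were close, at 125% and 114% and at 145% and 152%. *Hspa5* (-0.12 ± 0.16), *Atf4* (-0.06 ± 0.12), *Trib3* (-0.05 ± 0.11) and *Chac1* (-0.02 ± 0.15) were nearest to 0. Adjusted p for these 8 genes lay between 0.259 and 0.951 by limma. Asking whether the difference from Nons changed between days, the F test called 0 of 10 genes, against 0.256% of all genes, with 0 of 10 also at an unadjusted p under 0.05 and by limma-voom.

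With *Smarca4* knocked down 1 of the 10 genes, *Psat1*, was lower, at 68.4% of Nons. A count of 1 of 10 is near the share of all genes called in this comparison, 6.71%. *Psat1* was called in 9 of 17 settings, the main one included. *Phgdh*, its neighbour in serine synthesis, had a similar estimate that did not pass, and *Ddit3* had a higher estimate that did not pass either. Averaged over the 4 days, *Atf4*, *Chac1*, *Asns* and *Sesn2* differed from Nons by less than 0.12 on the log2 scale. The controls are the same 4 Nons libraries as in the comparison above, so the 2 knockdown comparisons are not independent.

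The count was 1 of 10 by limma, against 6.71% of all genes, and 1.96% of all genes were called lower. *Psat1* was 335, 1320.0, 1275 and 599.8 rpm on days 4 to 7 in Nons, 294, 861, 768 and 425 rpm in Smarca4.4 and 336, 704, 787 and 356 rpm in Smarca4.6. On day 4 the 3 libraries were close together, and on days 5, 6 and 7 both Smarca4 hairpins lay well below Nons. The mean difference over the days was -0.55 ± 0.14 on the log2 scale (adjusted p = 0.03 by limma), with 7 of 8 libraries lower than same-day Nons. The call was lost with each series taken as a replicate block (adjusted p = 0.154), without a filter on low values (0.0599), and whenever 1 hairpin of this group or 1 day was left out (0.0601 to 0.234), while the difference stayed between -0.70 and -0.47 in all 16 other settings. In the Smarcc1 knockdown libraries, which share the controls, *Psat1* was 353, 1187, 1161 and 550.0 rpm in Smarcc1.6 and 360.0, 937, 750.0 and 482 rpm in Smarcc1.7.

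*Phgdh* was 119, 247, 246 and 202 rpm on days 4 to 7 in Smarca4.4 and 153, 360.4, 265 and 162 rpm in Smarca4.6. It was below same-day Nons in 7 of 8 libraries, the exception being Smarca4.6 on day 5, and the mean difference was -0.43 ± 0.13 (adjusted p = 0.0706 by limma). Without day 5 it passed, with an adjusted p of 0.0399. *Ddit3* was 5.50, 21.6, 31.1 and 32.2 rpm in Nons, 6.53, 21.1, 37.2 and 40.5 rpm in Smarca4.4 and 7.36, 35.8, 65.7 and 59.4 rpm in Smarca4.6. Smarca4.6 was the highest of the 5 libraries on days 5, 6 and 7, while Smarca4.4 was close to Nons on day 5 and above it on days 6 and 7. The mean difference was 0.49 ± 0.19 (adjusted p = 0.157), and with Smarca4.6 as the only Smarca4 hairpin it was 0.78 and passed (adjusted p = 0.0301).

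*Hspa5* likewise differed between the hairpins of this group. It was 1055, 787, 1527 and 1929 rpm on days 4 to 7 in Nons, 956, 803, 1304 and 2538 rpm in Smarca4.4 and 1143, 724, 2290.3 and 2973 rpm in Smarca4.6. On day 6 Smarca4.6 stood above all 4 other libraries and Smarca4.4 below Nons, and on day 7 both were above Nons. The mean difference was 0.16 ± 0.16 (adjusted p = 0.654 by limma). The library of Smarca4.6 on day 6 also had the lowest *Smarca4* of the 20, 19.5 rpm, or 21.6% of same-day Nons. On day 5 the same hairpin had *Smarca4* at 24.1% and *Hspa5* at 91.9% of same-day Nons. A link between these levels was not tested. For the other genes the log2 differences were 0.21 ± 0.13 (*Xbp1*), -0.21 ± 0.11 (*Trib3*), -0.12 ± 0.15 (*Chac1*), -0.10 ± 0.12 (*Atf4*), -0.07 ± 0.11 (*Asns*) and -0.01 ± 0.23 (*Sesn2*). The F test of a change of this difference between days called 0 of 10 genes, against 0.00752% of all genes, and 0 of 10 at an unadjusted p under 0.05 or by limma-voom.

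**Figure D3:**
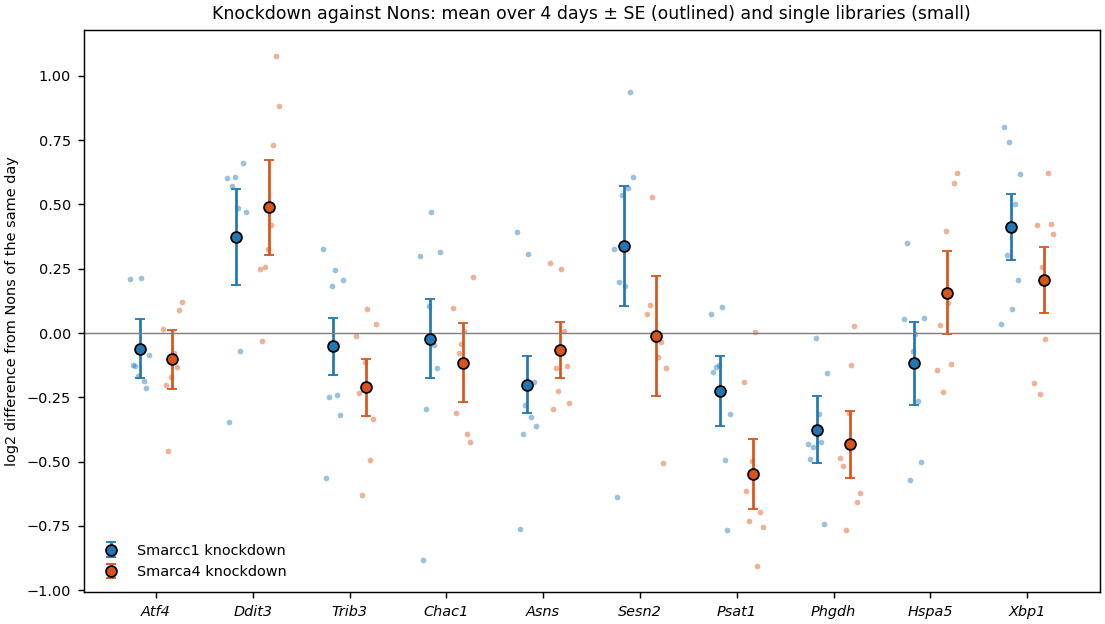
Log2 difference from same-day Nons (vertical) for each gene (horizontal) in Smarcc1 knockdown (blue) and Smarca4 knockdown (orange). Outlined points are means over the 4 days with SE from limma, and small points are the 8 single libraries of each group. Psat1 in Smarca4 knockdown lies lowest at -0.55, and Atf4 lies close to 0 in both groups.

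Both knockdowns were also set directly against each other, which needs no Nons library. By limma 0 of 10 genes differed, against 4.09% of all genes. At an unadjusted p under 0.05 the count was 1, *Psat1*, which was higher in Smarcc1 than in Smarca4 knockdown by 0.32 ± 0.11 on the log2 scale (adjusted p = 0.145), and limma-voom called 0. *Sesn2*, at 0.35 ± 0.19, and *Hspa5*, at -0.28 ± 0.13, were of similar size with a wider error. It is therefore not shown that *Psat1* responded to 1 knockdown and not to the other.

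Some cell type markers also differed from Nons in the knockdowns, by tests that were not repeated under other settings. Of the 5 pluripotent stem cell markers, *Nanog*, *Zfp42* and *Esrrb* were higher than in Nons in Smarcc1 knockdown (by 1.09, 0.83 and 1.84 on the log2 scale) and in Smarca4 knockdown (0.84, 0.78 and 1.24). *Sox2* passed in Smarcc1 knockdown alone (0.45), and *Pou5f1* in neither. Among the 3 primed epiblast markers, *Fgf5* (-1.31 in Smarcc1 and -1.10 in Smarca4 knockdown) and *Otx2* (-0.45 and -0.60) were lower. *Dnmt3b*, the most abundant of the 3 with a mean of 1057 rpm on day 4, did not pass (0.09 and 0.18). On day 7 the 5 pluripotent markers summed to 359 rpm in Nons, 508 to 702 rpm in Smarcc1 knockdown and 326 to 331 rpm in Smarca4 knockdown. Of the 2 neural markers *Sox1* was higher (2.40 and 2.33) and *Pax6* did not pass (0.26 and 0.30), and the endoderm marker *Gata4* was higher (1.14 and 0.89), from low levels. The fibroblast or mesenchyme markers went different ways, *Dcn* being lower (-2.95 and -2.37), *Col1a1* higher in Smarcc1 knockdown (1.32) and *Col1a2* passing in neither. The part of these markers in the differences of *Psat1*, *Phgdh*, *Ddit3* and *Xbp1* was not tested.

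Textbook lists of other genes in these pathways showed which branches moved with the 10. A gene is said to have risen or fallen here where its limma adjusted p was under 0.05, which between day 4 and day 5 held for 19.5% of all genes in the higher and 19.2% in the lower direction. In this step most genes of the ATF4 branch went up. All 7 bZIP partners and regulators were tested and 6 rose and 0 fell, with a median of 1.84 on the log2 scale. Of 11 further genes of serine, one-carbon and proline synthesis 8 rose and 0 fell (median 0.91), of 6 secreted and other ATF4 targets 5 rose and 0 fell (median 1.33), and of 13 aminoacyl-tRNA synthetase and tRNA export genes 6 rose and 1 fell (median 0.36). The median over all genes tested was -0.03. Amino acid transporters were divided, with 3 of 9 up and 2 down (median 0.17).

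The kinases and phosphatases that set eIF2alpha phosphorylation, with the subunits of its exchange factor, did not share this step: 1 of 12 rose and 2 fell (median -0.17). Among 23 chaperone and degradation genes of the ATF6 and XBP1 arms 2 rose and 5 fell on day 5 (median -0.05). Many of the same 23 genes then went up, with 8 rising and 0 falling from day 5 to day 6, when 17% of all genes rose, and 12 rising and 0 falling from day 6 to day 7, when 16.9% rose. Over the whole time from day 4 to day 7, 16 of the 23 rose and 0 fell, beside 35.7% of all genes that rose.

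From each list the 2 genes with the largest step that passed are named here, a rule set after the values had been seen. *Vldlr*, a lipoprotein receptor, went from a mean of 3.35 rpm on day 4 to 39.9 rpm on day 5 (3.52 ± 0.26 on the log2 scale), and *Tsc22d3* from 3.37 to 14.1 rpm (2.09 ± 0.15). *Pck2*, the mitochondrial PEP carboxykinase, went from 42.3 to 154 rpm (1.97 ± 0.13) and *Pycr1*, an enzyme of proline synthesis, from 17.0 to 57.9 rpm (1.73 ± 0.18). Among bZIP genes *Atf3* and *Jdp2* rose by 2.23 ± 0.17 and 2.18 ± 0.29, with means of 29.9 and 33.4 rpm on day 7. The synthetase genes *Sars* and *Cars* rose by 1.09 ± 0.14 and 0.84 ± 0.10. These 8 genes had limma adjusted p of at most 1.51e-04 and kept their call in all 12 other settings.

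The other lists were led by smaller or opposite steps. *Slc38a2*, a transporter of small neutral amino acids, fell by 1.26 ± 0.21 from a mean of 1011 rpm, while the glycine transporter gene *Slc6a9* rose by 1.09 ± 0.34. *Herpud1*, which is shared by the ATF4 and ATF6 arms, rose by 1.14 ± 0.15, and *Atf6* fell by 0.71 ± 0.16. *Eif2b4* fell by 0.54 ± 0.11 and *Eif2s1*, the gene of eIF2alpha, rose by 0.49 ± 0.18. The calls of *Eif2s1* (adjusted p = 0.049 by limma) and *Slc6a9* were lost in some other settings, 7 and 2 of 12.

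**Figure D4:**
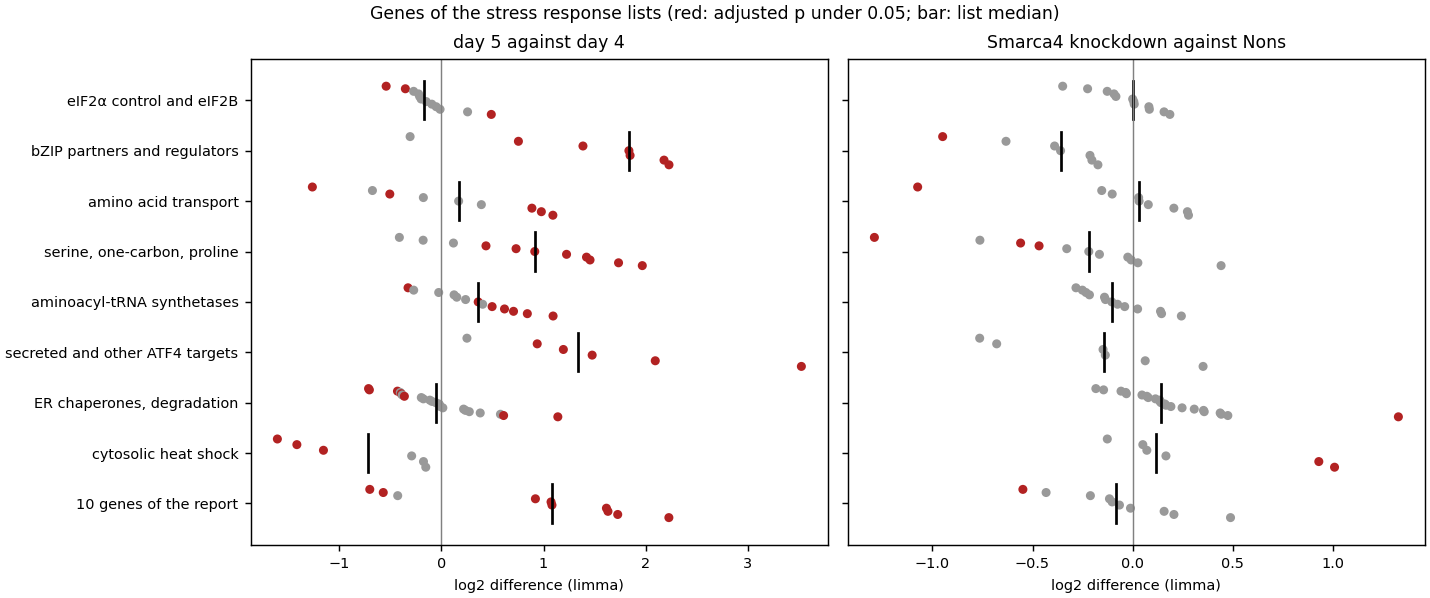
Log2 difference (horizontal) of every tested gene of each list (rows), on the left for day 5 against day 4 and on the right for Smarca4 knockdown against Nons, with red for an adjusted p under 0.05 and a bar at the list median. On the left the medians of the bZIP, serine and secreted lists lie near 1.84, 0.91 and 1.33, and on the right few genes are red.

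In the knockdown comparisons few genes of these lists passed. Of the 87 genes in all 8 lists, 6.9% were called in Smarcc1 knockdown, beside 10.6% of all genes, and 9.2% in Smarca4 knockdown, beside 6.71%, so that 0 or 1 call in a list of this size is near the background. In Smarcc1 knockdown 0 of 12 eIF2alpha genes, 0 of 9 transporters, 0 of 13 synthetase genes and 0 of 6 secreted targets were called, with list medians between -0.03 and 0.11 beside 0.06 over all genes. The bZIP list gave 2 lower of 7, *Atf3* (-1.01 ± 0.16) and *Jdp2* (-0.91 ± 0.27). The serine list gave 1 lower of 11, *Cth*, which makes cysteine from cystathionine (-0.96 ± 0.10, adjusted p = 5.86e-05 by limma). *Derl3*, an endoplasmic reticulum degradation gene, was the 1 higher gene of the 23 (1.08 ± 0.23). The calls of *Atf3* and *Cth* held in all 16 other settings, that of *Jdp2* was lost in 8 and that of *Derl3* in 2.

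In Smarca4 knockdown *Atf3* (-0.95 ± 0.16), *Cth* (-1.29 ± 0.10, adjusted p = 3.25e-05 by limma) and *Derl3* (1.33 ± 0.23) were called in the same directions, against the same Nons libraries. *Cth* was at 113 to 190.2, median 149 rpm over the 4 Nons libraries, at 43.5 to 105, median 86.4 rpm over the 8 Smarcc1 libraries and at 30.3 to 109.6, median 66.9 rpm over the 8 Smarca4 libraries. No knockdown library reached the lowest Nons library. Besides *Cth*, 2 more of the 11 serine and one-carbon genes were lower, *Pck2* (-0.56 ± 0.12) and *Shmt2*, the mitochondrial serine hydroxymethyltransferase (-0.47 ± 0.12), and the list median was -0.22 beside 0.06 over all genes. *Slc7a11*, the cystine transporter, was lower by 1.07 ± 0.24. The calls of *Pck2*, *Shmt2* and *Slc7a11* were lost with the replicate block (adjusted p of 0.114, 0.205 and 0.115). They were also lost when either Smarca4 hairpin, day 6 or day 7 was left out. That of *Shmt2* was further lost without a filter on low values (0.0577), without either Smarcc1 hairpin and without day 4 (0.0753). The call of *Atf3* was lost without Smarca4.6 (0.0622), and that of *Derl3* without Smarca4.6 (0.104) and without day 7 (0.114), while *Cth* held in all 16 other settings. No eIF2alpha gene, synthetase gene or secreted target passed, 0 of 12, 0 of 13 and 0 of 6.

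Likeness of pattern over the 20 libraries is given as a description, since the points share their days and culture series. The genes with the highest Pearson r with *Atf4* among the 13295 others were *Trib3* (0.93), *Katnal2* (0.91), *Chac1* (0.91), *Zfp639* (0.90) and *Rpl6* (0.90), so 2 of the 5 were among the 10 genes. *Psat1* ranked 70 and *Phgdh* 101, whereas *Asns* ranked 643 and *Ddit3* 692. With *Ddit3* the highest were *Lrrc51* (0.98), *Hdac11* (0.97), *1700029J07Rik* (0.97), *Copz2* (0.97) and *Cep72* (0.97), and *Asns* ranked 71. Once the mean of each day was taken away, *Trib3* and *Chac1* kept an r of 0.65 and *Psat1* and *Phgdh* one of 0.56, while *Atf4* and *Chac1* dropped from 0.91 to 0.15 and *Ddit3* and *Trib3* from 0.80 to 0.03. *Ddit3* and *Psat1* went from 0.46 to -0.58.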

How the data were processed

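From extracted RNA the authors made libraries with a TruSeq RNA kit and sequenced them as single-end 75-base reads. They used trim_galore and then tophat or HISAT2 (build mm10), and deposited log2 rpm per gene from the SeqMonk RNA-seq pipeline. Annotation release and strand use are not given in the sources used here. A gene without reads carries 0.9 of a read, from which whole reads and totals were recovered (100% of values under 1000 reads whole within 0.05).

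The 13296 of 25965 entries whose log2 rpm averaged 0 or more were fitted with limma 3.58.1 (lmFit, eBayes with trend; R 4.3.3) with 1 mean for each of 12 combinations of group and day, and p-values were Benjamini-Hochberg adjusted over all genes (threshold 0.05). The 8 residual degrees of freedom come from same-day hairpin pairs, so Nons is assumed to vary like these, and p-values measure only the spread between these libraries. Knockdown contrasts are averages over days; day contrasts are averages over groups. Alternatives were 1 added to rpm, 2 other filters, centring, quantile normalization, limma-voom, a replicate block, and leaving out each hairpin, the smallest library or each day. Titles were followed for Smarca4 libraries, whose genotype label names Smarcc.

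The genes, lists and named-gene rule (all 10, the targets, at most 4 called genes per list and knockdown comparison, the 5 most alike *Atf4* and *Ddit3*) were chosen with earlier results of these data known. Steps between neighbouring days were added after seeing the data.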

Additional observations from a re-analysis of the deposited data

Results flagged for a closer look

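The effects of the 2 knockdowns differed by limma's direct test in 5 of the 87 genes of the lists, or 5.75%, beside 4.09% of all genes, with Smarcc1 knockdown higher than Smarca4 knockdown by 1.12 for *Gdf15*, a stress cytokine (adjusted p = 0.01), 0.75 for *Nupr1*, a stress-induced chromatin protein (0.0317), 0.58 for *Pck2* (0.00614), 0.45 for *Gpt2*, a mitochondrial alanine aminotransferase (0.0124), and 0.33 for *Cth* (0.0302), all on the log2 scale. *Gdf15* was at 1.32 to 4.67, median 3.69 rpm in Smarcc1 and 0.778 to 2.63, median 1.21 rpm in Smarca4 knockdown. None of the 5 calls held with the replicate block, where adjusted p was 0.0689 to 0.203. Other settings lost them as well. With the main setting included, *Pck2* was called in 11 of 17 settings, *Nupr1* and *Gpt2* in 10 of 17, *Cth* in 8 of 17 and *Gdf15* in 9 of 16.

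*Smarca4* in the Smarca4.6 library of day 6 lay apart from the other 7 Smarca4 knockdown libraries: its gap to the nearest of them was 0.531 of the range of the group on the log2 scale, past Dixon's limit for a group of 8. On the rpm scale it was 0.387, which is not past the limit. Of 72 groups of libraries examined this was the only one to pass, and chance alone would pass about 1 in 20. The 8 libraries span 4 days and 2 hairpins, so they are not repeats of 1 condition. In Nons *Smarca4* was also lowest on day 6, at 90.4 rpm. As a share of same-day Nons the Smarca4.6 library of day 6 stood at 21.6%, and the other 7 at 24.1% to 55.3%.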

How the results depend on the processing

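Each comparison was repeated under up to 16 other settings. In Smarcc1 knockdown the count of the 10 genes called was 0 and became 1 without the smallest library (*Phgdh*) and without day 6 (*Xbp1*). In Smarca4 knockdown it was 1 and became 0 without a filter on low values, with each culture series as a replicate block, and without day 4, 6 or 7, and lay between 0 and 1 when 1 hairpin was left out. Without Smarca4.4 the called gene was *Ddit3*, and without day 5 it was *Phgdh*, in place of *Psat1*. Between the knockdowns it was 0 and became 1 with quantile normalization (*Psat1*, 0.33, adjusted p = 0.041). With 1 hairpin left out, the count lay between 3 and 4 for day 6 against day 5 and between 1 and 4 for day 7 against day 6. The replicate block (correlation 0.217 between libraries of a series) took the calls over all genes from 1412 to 605 in Smarcc1 knockdown, from 892 to 258 in Smarca4 knockdown and from 544 to 105 between them. With genes of at least 10 rpm, so fewer tested, these 3 counts were 579, 324 and 241, without day 7 they were 379, 132 and 56, and with limma-voom on whole reads 1458, 899 and 599. Quantile normalization moved the split of higher and lower calls from 1003 and 409 to 600 and 518 in Smarcc1 knockdown, and from 631 and 261 to 351 and 313 in Smarca4 knockdown, where centring gave 541 and 353.

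Signs turned only in small differences. In Smarcc1 knockdown *Trib3* turned to 0.065 without day 5 and 0.026 without day 6, *Chac1* to 0.13 and 0.043, and *Hspa5* to 0.022 without day 6. With 1 hairpin left out *Chac1* ranged from -0.19 to 0.15 and the *Smarca4* gene from -0.034 to 0.57. In Smarca4 knockdown *Sesn2* turned to 0.013 without day 7 and ranged from -0.19 to 0.17 over left-out hairpins. Between the knockdowns *Atf4* turned to -0.025 without day 4, *Ddit3* to 0.031 without day 5, and *Phgdh* to -0.013 without the smallest library and -0.052 without day 7, and over left-out hairpins these ranged from -0.060 to 0.14, -0.40 to 0.17 and -0.032 to 0.14, and *Chac1* from -0.078 to 0.27. For day 7 against day 4 *Xbp1* turned to -0.0053 when centred. For day 6 against day 5 *Phgdh* turned to -0.0035 when centred and -0.049 without the smallest library (-0.031 to 0.12 over left-out hairpins). For day 7 against day 6 *Ddit3* turned to -0.19 when centred and -0.17 with quantile normalization (-0.041 to 0.049), and *Asns* to 0.023 with quantile normalization (-0.051 to 0.045). None of these values passed the test, and the causes were not tested.

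Nons is 1 series, so a shift of that series would appear in both knockdown comparisons alike. When 1 hairpin was left out, the lone hairpin of that group was assumed to vary like the others. Depth limits *Ddit3* and *Chac1* most, the genes with the fewest reads.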

Other observations

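Among the cytosolic heat shock genes, 3 of 6 fell and 0 rose from day 4 to day 5, with a median of -0.72 on the log2 scale beside -0.03 over all genes. *Hsph1*, a partner of HSP70, went from a mean of 586 rpm on day 4 to 191, 78.4 and 94.3 rpm on days 5, 6 and 7, and *Hsp90aa1* from 3706 to 1682 rpm between day 4 and day 7. For *Hspa1b* the step from day 4 to day 5 lay between -1.60 and -1.04 on the log2 scale over 12 settings and passed in all 12. Day 4 was 1 day after the start of puromycin. Selection, the change of medium and differentiation cannot be told apart in these courses, and the part of each was not tested. *Hspa1a* and *Hspa1b*, near-identical inducible HSP70 genes whose reads may be split between them, were the 2 called genes of the list in both knockdowns, at 1.19 ± 0.21 and 0.93 ± 0.23 in Smarcc1 and 1.01 ± 0.21 and 0.93 ± 0.23 in Smarca4 knockdown. Their levels were low, with *Hspa1a* at 0.354 to 1.17, median 0.605 rpm in Nons, and the calls depended on the setting: *Hspa1a* was called in 13 of 16 settings and *Hspa1b* in 10 of 16 in Smarcc1 knockdown, and in 8 and 7 of 16 in Smarca4 knockdown. With the replicate block *Hspa1b* was lost in both groups (adjusted p of 0.119 and 0.168) and *Hspa1a* in Smarca4 knockdown (0.0936).

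With the mean of each day removed, *Sesn2* and *Hspa5* had a Pearson r of -0.78 over the 20 libraries and *Sesn2* and *Chac1* one of 0.63, against -0.47 and -0.43 before. On day 5 the Smarcc1.6 library was the lowest of the 5 for *Sesn2*, *Chac1*, *Trib3*, *Asns* and *Ddit3* and the highest for *Hspa5* and *Xbp1*. On day 6 the Smarca4.6 library was the lowest of the 5 for *Sesn2* and the highest for *Hspa5*. The correlations without these libraries were not computed.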
